A study of Mus musculus with 4 samples.

Results

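The Wnt ligands, their Frizzled receptors and co-receptors and the secreted Wnt antagonists were compared between Lgr5+ and Lgr6+ progenitors of the neonatal mouse cochlea. The genes were chosen by symbol alone, as all Wnt, Fzd, Dkk and Sfrp genes of the deposited table together with *Dkkl1*, *Wif1*, *Frzb*, *Lrp5*, *Lrp6*, *Ror1*, *Ror2*, *Ryk* and *Porcn*. This gave 46 of 23997 genes, made up of 19 Wnt ligands, *Porcn*, 10 Frizzleds, 5 co-receptors and 11 secreted antagonists. The study asked how the cochlear progenitors marked by Lgr5 and by Lgr6 differ in the genes that may control their proliferation and their differentiation into hair cells (HCs). Lgr5+ progenitors were isolated by flow cytometry for EGFP at postnatal day (P)3, with Lgr5-EGFP-IRES-CreERT2 mice as their source, and Lgr6+ progenitors came from Lgr6-EGFP-IRES-CreERT2 mice of the same age, both labelled C57BL/6. In both lines EGFP and CreERT2 are placed under the control of the endogenous *Lgr5* or *Lgr6* gene, so all cells carry a modified allele of the gene that marks them, and EGFP- cells were not analysed here. The labels give 2 libraries for each population, whereas the methods describe fractions of 1 RNA extraction, and the number of animals pooled is not given in the sources used here.

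Wnt proteins are secreted ligands that must be lipid-modified by Porcupine, the product of *Porcn*, before they can leave the cell. They bind the cysteine-rich domain of Frizzled receptors. With Lrp5 or Lrp6 as co-receptor they stabilise β-catenin, while Ror1, Ror2 and Ryk take up Wnt signals that act largely without β-catenin. Secreted Frizzled-related proteins, Frzb and Wif1 bind Wnt proteins outside the cell, whereas Dkk1, Dkk2 and Dkk4 block Lrp5 and Lrp6. In the cochlea, Wnt/β-catenin signalling drives proliferation of prosensory cells, and *Lgr5* and *Lgr6* are themselves Wnt targets.

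Each gene has 1 FPKM value per population, in which the libraries are already combined. FPKM is a fragment count divided by transcript length and by the mapped fragments of the library, so levels of different genes can be set side by side. No spread between replicates is therefore known, no difference below has a replicate check, and no *p*-value was calculated. A difference is log2(FPKM + 1) in Lgr6+ cells minus log2(FPKM + 1) in Lgr5+ cells, and the added 1 understates the change of low genes. Genes reaching 1 FPKM in either population were kept, and a kept gene was counted as higher in a population when the gap on this scale was 1.5-fold or more. Summed over all genes, the FPKM of Lgr6+ cells was 0.833 times that of Lgr5+ cells.

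Of the genes used for sorting, *Lgr5* went against its label, and the labels are used here as they were given. *Lgr5* stood at 9.65 FPKM in Lgr5+ and 25.0 FPKM in Lgr6+ cells, and *Lgr6* had 2.06 and 2.90. The paper describes the Lgr6+ cells as part of the Lgr5+ progenitor population, and why *Lgr5* was higher in them was not tested. All 13 supporting cell and prosensory markers examined were kept, with a summed FPKM of 1625 in Lgr5+ and 1291 in Lgr6+ cells. Hair cell markers were also present, with 10 of 10 kept and sums of 1751 and 2307. As RNA of sorted populations was measured, fewer cells of a type and less RNA per cell cannot be told apart.

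Of the 46 genes, 28 were kept, 13 of them were higher in Lgr5+ cells and 5 were higher in Lgr6+ cells. The 13 genes were *Wnt7b*, *Wnt7a*, *Wnt4*, *Porcn*, *Fzd8*, *Fzd1*, *Ryk*, *Lrp6*, *Sfrp1*, *Dkk3*, *Sfrp2*, *Frzb* and *Dkk2*, and the 5 genes were *Wif1*, *Ror1*, *Wnt5b*, *Wnt2b* and *Dkkl1*. The 13 genes were 46.4% of those kept, against 23.3% of all 13436 kept genes that were higher in Lgr5+ cells. The 5 genes were 17.9%, against 28.5% of all kept genes that were higher in Lgr6+ cells. The median difference of the 28 genes was -0.47, against 0.03 over all kept genes. When both populations were scaled to the same summed FPKM, which moved the median of all kept genes to 0.27, 9 genes were higher in Lgr5+ and 7 in Lgr6+ cells, against 16.3% and 36.9% of all kept genes.

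The sides differed in the level at which their genes were found, and all kept genes leaned in the same direction. Of the 13 genes higher in Lgr5+ cells, 12 had 1 FPKM or more in both, and *Dkk2* was just under 1 in Lgr6+ cells. Of the 5 genes higher in Lgr6+ cells, *Dkkl1* alone reached 1 in both, and the others were at or below 0.102 in Lgr5+ cells. Those others passed the filter through their Lgr6+ value alone. Over all kept genes, 2516 of the 3136 higher in Lgr5+ cells had 1 FPKM or more in both. For those higher in Lgr6+ cells it was 2392 of 3826. Among the 21 of these genes with 1 FPKM or more in both, 12 were higher in Lgr5+ cells and 1 in Lgr6+ cells, against 22.5% and 21.4% of the 11177 genes of the whole table that met the same condition. At a threshold of 2-fold, 5 genes were counted on each side, against 11.7% of all kept genes higher in Lgr5+ and 18.2% higher in Lgr6+ cells.

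**Figure D1:**
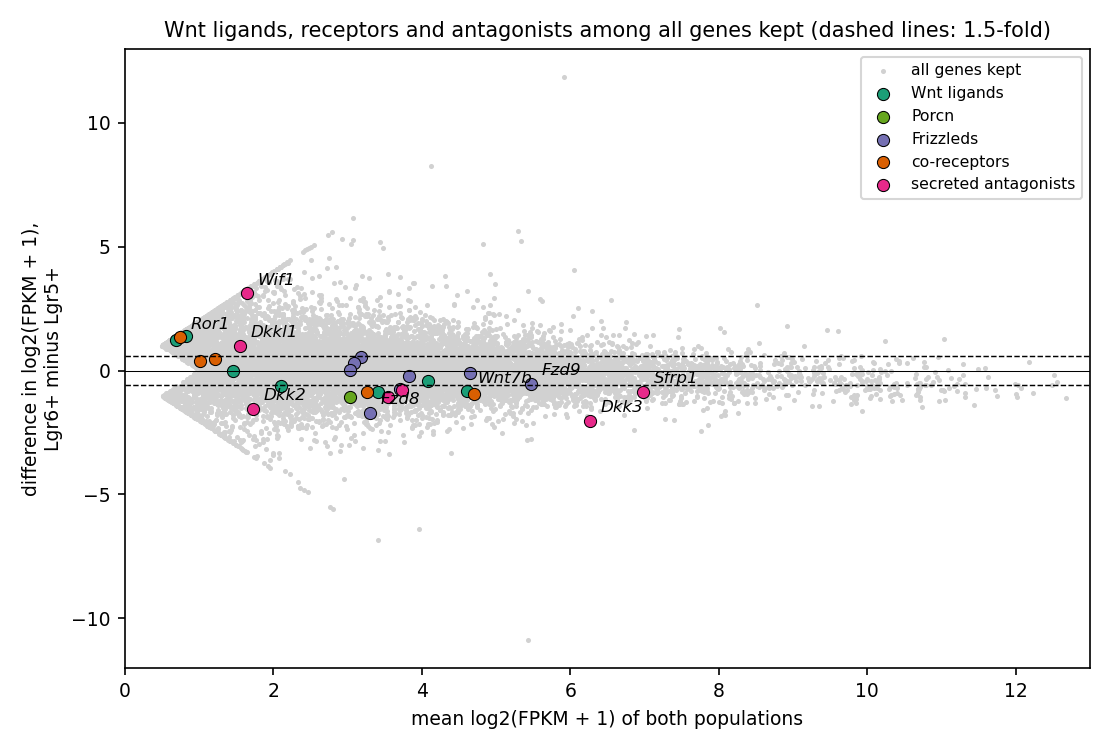
Difference in log2(FPKM + 1) between Lgr6+ and Lgr5+ cells (vertical axis) against the mean log2(FPKM + 1) of both (horizontal axis). Each grey point is 1 of 13436 kept genes, coloured points are the 28 kept Wnt ligands, *Porcn*, Frizzleds, co-receptors and secreted antagonists, and dashed lines mark 1.5-fold. *Dkk3*, at -2.02, is the lowest coloured point and *Wif1*, at 3.13, the highest, and 13 coloured points lie below the lower line against 5 above the upper line.

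The sequences before the transcription start are shown for *Wif1* and *Wnt2b*, which were near 0 in Lgr5+ cells and higher in Lgr6+ cells. They are also shown for *Wnt7a* and *Ryk*, which were higher in Lgr5+ cells. *Wnt11*, at 0 in Lgr5+ cells, is shown too, but it was below the filter and counted on neither side. The sequences are the 250 bases before the RefSeq start, on the strand of the gene, in build GRCm38.p6. For *Wnt11*, that of the 2 starts that holds the letters searched for was taken. *Wif1* is at chr10:121033754-121034003 on the plus strand, *Wnt2b* at chr3:104961710-104961959 on the minus strand, *Wnt11* at chr7:98834862-98835111 on the plus strand, *Wnt7a* at chr6:91411354-91411603 on the minus strand and *Ryk* at chr9:102834670-102834919 on the plus strand. Capitals mark CTTTGAT or its reverse complement ATCAAAG, the letters of a site that TCF and LEF factors, the DNA-binding partners of β-catenin, are known to prefer.
Wif1: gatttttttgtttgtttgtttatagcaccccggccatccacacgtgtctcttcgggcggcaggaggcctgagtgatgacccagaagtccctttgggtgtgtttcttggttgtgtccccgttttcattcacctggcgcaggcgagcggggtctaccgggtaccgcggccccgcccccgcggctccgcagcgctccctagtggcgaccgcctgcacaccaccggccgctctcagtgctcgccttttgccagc
Wnt2b: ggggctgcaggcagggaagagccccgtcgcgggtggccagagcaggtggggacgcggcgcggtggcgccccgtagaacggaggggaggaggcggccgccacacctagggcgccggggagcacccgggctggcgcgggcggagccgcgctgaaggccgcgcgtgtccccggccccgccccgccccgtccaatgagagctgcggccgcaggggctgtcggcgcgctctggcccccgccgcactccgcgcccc
Wnt11: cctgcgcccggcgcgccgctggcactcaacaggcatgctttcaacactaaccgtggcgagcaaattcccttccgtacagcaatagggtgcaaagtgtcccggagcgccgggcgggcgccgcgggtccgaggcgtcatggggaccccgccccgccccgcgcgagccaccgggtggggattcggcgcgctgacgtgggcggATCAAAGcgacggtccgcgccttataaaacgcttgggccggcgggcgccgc
Wnt7a: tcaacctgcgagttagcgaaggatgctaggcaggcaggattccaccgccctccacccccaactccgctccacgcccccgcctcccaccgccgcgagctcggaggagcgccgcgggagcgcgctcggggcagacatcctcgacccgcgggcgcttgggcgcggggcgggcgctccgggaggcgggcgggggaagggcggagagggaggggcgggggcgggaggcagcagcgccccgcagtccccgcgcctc
Ryk: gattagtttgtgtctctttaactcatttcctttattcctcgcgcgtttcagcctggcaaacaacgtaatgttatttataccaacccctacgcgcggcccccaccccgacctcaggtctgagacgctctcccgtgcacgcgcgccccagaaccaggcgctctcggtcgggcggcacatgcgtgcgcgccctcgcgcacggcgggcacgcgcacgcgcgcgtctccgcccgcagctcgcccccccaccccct
Of these sequences only that of *Wnt11* held the letters, which lay 51 bases before the start. RefSeq sequences were matched for 31 of the 46 genes, with 34 starts. The letters were found on either strand before 2 of the 34 starts, 1 of the 2 starts of *Wnt11* and 1 of the 3 starts of *Wnt5b*, a share of 5.88%. They were found before 3.21% of all 32851 starts and before 2.22% of the 12819 starts of kept genes. The number of CG dinucleotides in the 250 bases was 21 for *Wif1*, 36 for *Wnt2b*, 34 for *Wnt7a* and 33 for *Ryk*, against a median of 15 for the starts of kept genes. For *Wnt11* it was 37 at the start shown and 16 at the other, which did not hold the letters. No sequence was matched for *Dkk3*, *Dkk4*, *Fzd2*, *Fzd3*, *Fzd6*, *Fzd8*, *Lrp5*, *Lrp6*, *Porcn*, *Sfrp1*, *Sfrp4*, *Wnt5a*, *Wnt7b*, *Wnt8a* and *Wnt10a*.

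Among the ligands, 4 genes supplied most of the signal. *Wnt7b*, a ligand of epithelia, stood at 31.5 FPKM in Lgr5+ and 17.4 FPKM in Lgr6+ cells, a difference of -0.82. For *Wnt5a*, known for signalling without β-catenin and for its part in the outgrowth and polarity of the cochlear duct, the levels were 18.5 and 13.8, a difference of -0.41 that stayed under 1.5-fold. *Wnt7a* had 13.4 FPKM and 6.81, a difference of -0.88. The order of these ligands was the same in both populations, and *Wnt4* came next in Lgr5+ and in Lgr6+ cells with 4.33 FPKM and 2.44, a difference of -0.63. Together the 4 genes were 97.2% of the summed ligand FPKM in Lgr5+ cells and 87.5% in Lgr6+ cells. That sum was 69.7 in Lgr5+ and 46.2 in Lgr6+ cells, 0.663 times as high in the latter and still 0.797 times as high after scaling to the same summed FPKM. After that scaling *Wnt7b* and *Wnt4* were under 1.5-fold, at -0.57 and -0.43, while *Wnt7a* was still past it.

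The other kept ligands were low. *Wnt9a* was at 1.76 in Lgr5+ and 1.71 in Lgr6+ cells, a difference of -0.03 that became 0.14 after scaling to the same summed FPKM. *Wnt5b* was at 0.102 in Lgr5+ cells and 1.86 in Lgr6+ cells, a difference of 1.38. *Wnt2b* was at 0.0504 and 1.47, a difference of 1.23. In Lgr6+ cells *Wnt5b* was thus just above *Wnt9a* and *Wnt2b* just below it, while in Lgr5+ cells both were far below it. *Wnt11*, a ligand of the branch without β-catenin, was listed at 0 in Lgr5+ cells and had 0.634 FPKM in Lgr6+ cells, below the filter. *Wnt2b*, *Wnt5b* and *Wnt11* together were 0.219% of the ligand sum in Lgr5+ and 8.58% in Lgr6+ cells.

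The remaining 11 ligands were at or near 0 in both populations. *Wnt3a*, *Wnt8a*, *Wnt8b*, *Wnt9b*, *Wnt10a*, *Wnt10b* and *Wnt16* were listed at 0 in both. *Wnt1*, *Wnt2*, *Wnt3* and *Wnt6* were listed at 0 in Lgr5+ cells and lay between 0.0185 and 0.0526 in Lgr6+ cells. *Wnt1* and *Wnt3a*, which like *Wnt3* are classical activators of β-catenin, were thus not detected in Lgr5+ cells. *Porcn*, needed to acylate all of the ligands, stood at 10.9 FPKM in Lgr5+ and 4.61 FPKM in Lgr6+ cells, a difference of -1.08, and it was past 1.5-fold under every scaling tried.

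How few fragments stand behind the lowest values can be read from their steps, because fragments come in whole numbers. FPKM was multiplied by transcript length in kilobases, less 200 bases, in 7836 genes that have a single annotated coding transcript. The products piled up at 0.128 for Lgr5+ cells, where 98 fell within 2% and windows of equal width beside it held 9.5 on average, and at 0.0401 for Lgr6+ cells, with 39 against 4. A step in Lgr5+ cells was 3.20 times as large, so the same FPKM there rests on fewer steps. As libraries were combined, it is not known how many fragments make a step, and no sequencing depth was taken from it. For genes with several transcripts the longest was used.

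By this measure the Lgr5+ values of 4 of the 5 genes higher in Lgr6+ cells were about 1 to 2 steps. *Wif1* was at 0.893 steps in Lgr5+ and 428 steps in Lgr6+ cells, *Wnt2b* at 1.32 and 123, *Ror1* at 2.10 and 231, and *Wnt5b* at 1.70 and 99.2. Had their Lgr6+ FPKM been reached in Lgr5+ cells, it would have stood at 134 steps for *Wif1*, 38.6 for *Wnt2b*, 72.2 for *Ror1* and 31.0 for *Wnt5b*. For *Wnt11* it would have been 16.03 steps by the longest of its 4 transcripts, whose Lgr6+ value of 51.3 steps is 6.85 by the shortest, and for *Fzd10* 2.06, while for *Wnt1*, *Wnt2*, *Wnt3*, *Wnt6* and *Sfrp5* it would have been below 1. For the last 5 genes a value of 0 in Lgr5+ cells therefore does not show a level below that in Lgr6+ cells. The 0 of *Fzd10* shows little either, as 2.06 steps are few, and for *Wnt11* the steps would be fewer by its shorter transcripts. A ratio against a value of about 1 step is not given.

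**Figure D2:**
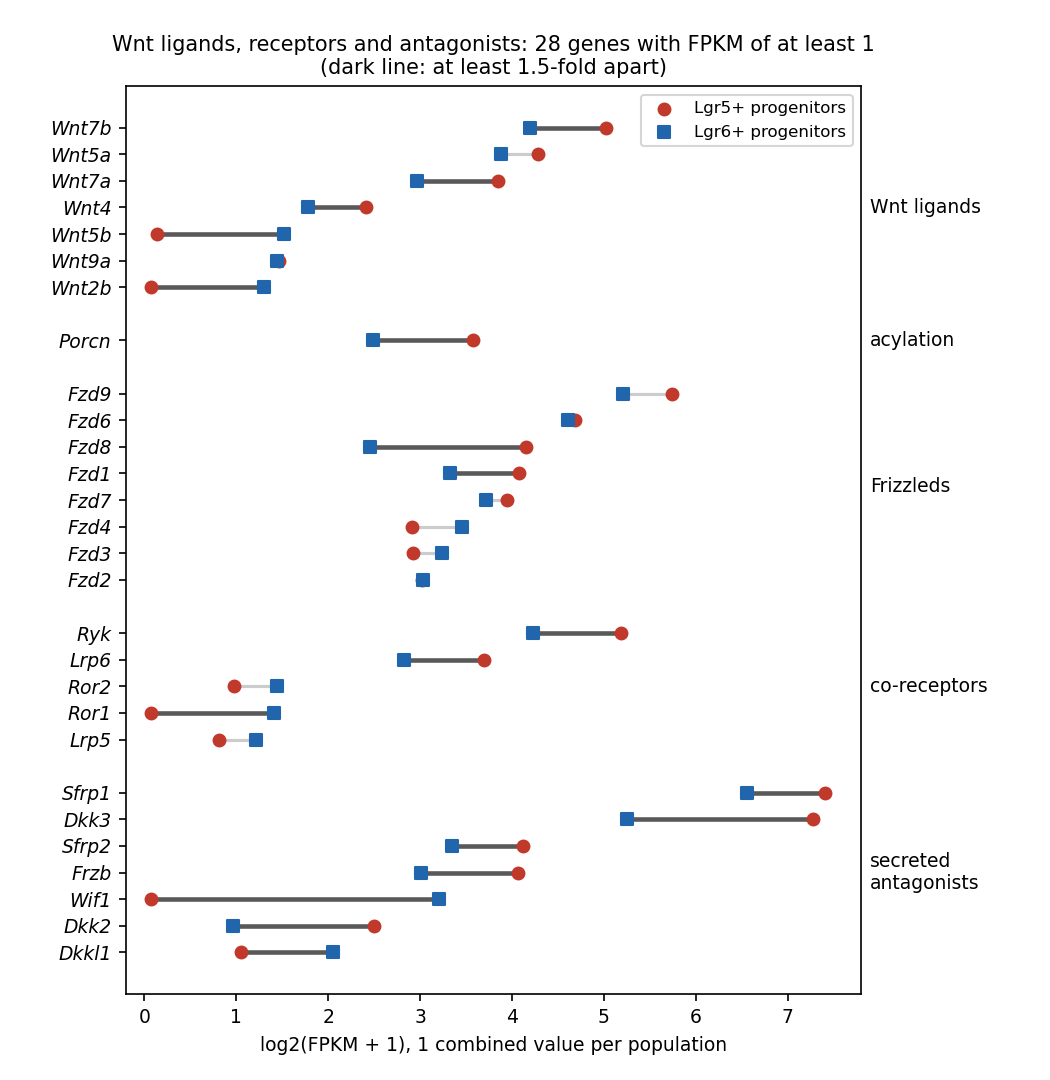
Levels of the 28 kept genes as log2(FPKM + 1) (horizontal axis), with 1 combined value for Lgr5+ cells (circles) and 1 for Lgr6+ cells (squares), grouped by role. Dark lines join values at least 1.5-fold apart. The squares lie left of the circles for 18 genes and right of them for 10, and *Wif1*, *Wnt2b*, *Wnt5b* and *Ror1* start close to 0 in Lgr5+ cells.

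Few of the Frizzled receptors were past 1.5-fold. Of the 10 genes 8 were kept, all with 1 FPKM or more in both, 2 were higher in Lgr5+ cells and none was higher in Lgr6+ cells. The 2 genes were 25% of the kept Frizzleds, near the 23.3% of all kept genes, while 28.5% of all kept genes were higher in Lgr6+ cells. *Fzd9* was the highest in both, with 52.4 FPKM in Lgr5+ and 36.1 in Lgr6+ cells and a difference of -0.53. *Fzd6*, a receptor known for its role in planar cell polarity, followed with 24.8 and 23.4, a difference of -0.08. *Fzd8* had 16.7 and 4.48, a difference of -1.70, which took it from the third highest Frizzled in Lgr5+ cells to the lowest of the kept Frizzleds in Lgr6+ cells. *Fzd1* had 15.9 and 9.003, a difference of -0.76 that fell under 1.5-fold, to -0.51, after scaling to the same summed FPKM.

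The other Frizzleds were under 1.5-fold, and the sign of the small differences of *Fzd2*, *Fzd6* and *Fzd7* turned with the scaling. The FPKM of *Fzd7* was 14.4 in Lgr5+ and 12.2 in Lgr6+ cells, that of *Fzd2* was 7.15 and 7.18, and *Fzd3*, which like *Fzd6* acts in planar cell polarity, had 6.59 and 8.42. *Fzd4*, a receptor for Norrin as well as for Wnt proteins, was higher in Lgr6+ cells with 6.55 and 9.96, a difference of 0.54. It was past 1.5-fold after scaling to the same summed FPKM, at 0.77, and with an added 0.1 in place of 1, at 0.60. *Fzd5* was below the filter with 0.784 and 0.975, and *Fzd10* was listed at 0 in Lgr5+ and at 0.0869 in Lgr6+ cells. The summed FPKM of the Frizzleds was 145 in Lgr5+ and 112 in Lgr6+ cells, 0.769 times as high in the latter and 0.923 times as high after scaling to the same summed FPKM. Their median difference was -0.15, but 0.10 after that scaling, so the family as a whole has no direction that holds under every scaling.

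Both of the more abundant co-receptors were lower in Lgr6+ cells. *Ryk* stood at 35.3 FPKM in Lgr5+ and 17.8 FPKM in Lgr6+ cells, a difference of -0.95. *Lrp6*, the co-receptor of the β-catenin branch, had 11.99 and 6.07, a difference of -0.88. Both stayed past 1.5-fold under all scalings. *Lrp5* was much lower, with 0.757 and 1.32, a difference of 0.40. *Ror2*, a receptor for Wnt5a, had 0.968 and 1.72, a difference of 0.47 that reached 0.62 after scaling to the same summed FPKM. With an added 0.1 in place of 1, *Lrp5* was at 0.73 and *Ror2* at 0.77, both past 1.5-fold. *Ror1* was at 0.0485 and 1.67, a difference of 1.35. The 3 low co-receptors thus had the higher value in Lgr6+ and the 2 abundant ones in Lgr5+ cells, except that after quantile normalization *Lrp5* was at -0.04 and *Ror2* at 0.08. The summed FPKM of all 5 was 49.1 and 28.6.

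Secreted antagonists showed the largest differences in both directions. Of 11 genes 7 were kept, and every kept gene was at least 1.5-fold apart. Of these, 5 (71.4%) were higher in Lgr5+ cells, against 23.3% of all kept genes. The 2 (28.6%) higher in Lgr6+ cells were near the 28.5% of all kept genes. *Sfrp1* stood at 169 FPKM in Lgr5+ and 93.2 FPKM in Lgr6+ cells, a difference of -0.85. *Dkk3*, a Dickkopf family member that is not known to block Lrp5 and Lrp6 as its relatives do, had 154 and 37.2, a difference of -2.02. Both ranked high among all kept genes, *Sfrp1* above 94.9% of them in Lgr5+ and 92.2% in Lgr6+ cells, and *Dkk3* above 94.4% and 81.6%. The deposited intervals place *Dkk3* at chr7:112116019-112159057 and *Wif1*, described next, at chr10:121034004-121100642. *Sfrp1* and *Dkk3* made up 89.4% of the summed antagonist FPKM in Lgr5+ cells and 81.99% in Lgr6+ cells. Their balance differed, since *Dkk3* was 42.7% of that sum in Lgr5+ and 23.4% in Lgr6+ cells, while *Sfrp1* was 46.75% and 58.6%.

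The remaining antagonists were at lower levels. *Sfrp2* stood at 16.5 FPKM in Lgr5+ and 9.17 FPKM in Lgr6+ cells, a difference of -0.78 that became -0.54 after scaling to the same summed FPKM. *Frzb* had 15.8 and 7.06, a difference of -1.06. *Dkk2* had 4.65 and 0.945, a difference of -1.54. In the other direction *Wif1*, a secreted protein that binds Wnt proteins, had 0.0548 and 8.21, a difference of 3.13, the largest among the 28 kept genes. *Dkkl1*, a distant relative of the Dickkopf genes, had 1.08 and 3.16, a difference of 1.00, and its Lgr5+ value was 5.89 steps. *Dkk1* was near 0 in both, with 0.0986 and 0.0256 or 1.71 and 1.42 steps, *Dkk4* and *Sfrp4* were listed at 0 in both, and *Sfrp5* was listed at 0 in Lgr5+ and at 0.0639 in Lgr6+ cells.

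Summed over all 11 genes, the antagonists stood at 361 FPKM in Lgr5+ and 159 FPKM in Lgr6+ cells, 0.440 times as high in the latter and 0.529 times as high after scaling to the same summed FPKM. Without *Dkk3* and *Sfrp1* the sums were 38.1 and 28.6. The antagonist sum was 5.18 times the ligand sum in Lgr5+ cells and 3.44 times the ligand sum in Lgr6+ cells. Multiplying a population by a constant does not change this ratio, but quantile normalization can. Both ratios rest on *Dkk3* and *Sfrp1*. Without them the antagonist sums were below the ligand sums of 69.7 and 46.2, and the ratio was higher in Lgr6+ cells. The 5 Dickkopf genes, *Dkkl1* included, summed to 160 and 41.4, 0.259 times as high in Lgr6+ cells, and *Dkk3* was most of it. The 6 other antagonists summed to 201 and 118, 0.585 times as high, closer to the 0.663 times of the ligand sum. The lower ratio in Lgr6+ cells thus lay largely in *Dkk3*, which is not known to block Lrp5 and Lrp6. The level order of all 46 genes was similar between the populations, with a Spearman rho of 0.93 across these genes, against 0.85 across all kept genes. Genes are not independent replicates, and those at 0 in both populations add to the former value. Over the 28 kept genes rho was 0.84.

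**Figure D3:**
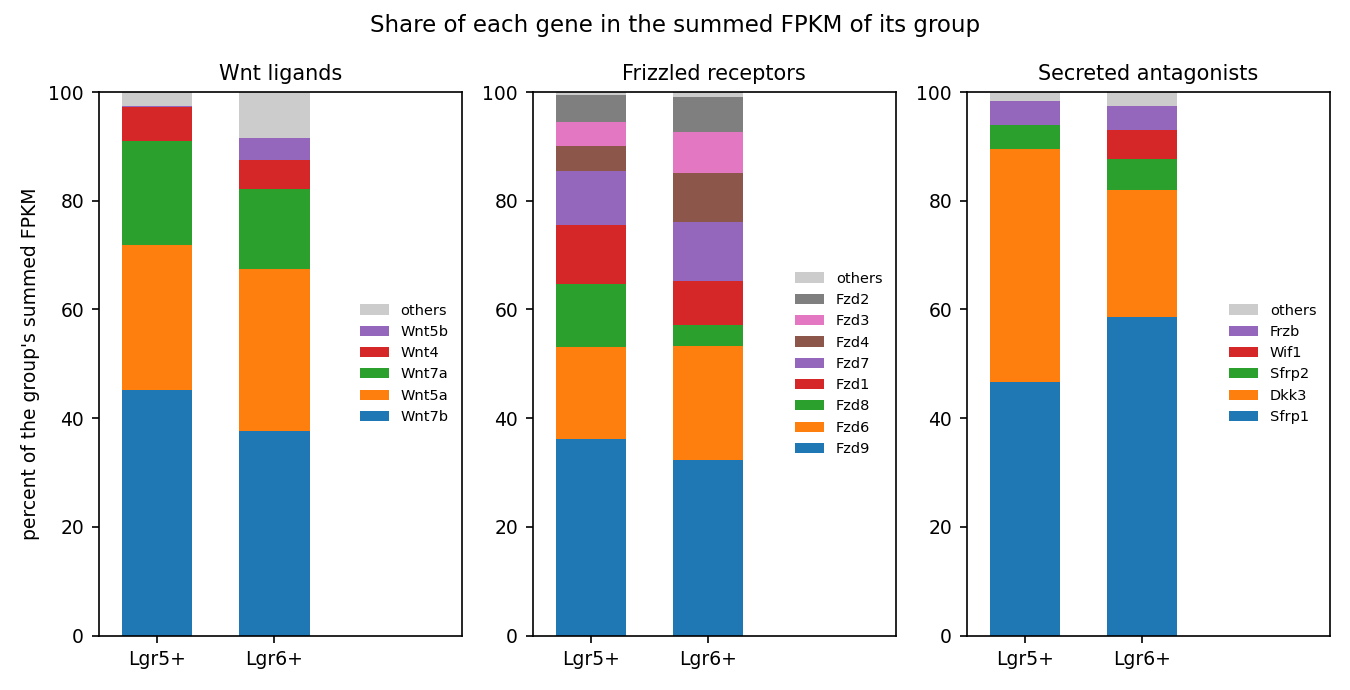
Share of each gene in the summed FPKM of its group (vertical axis, percent) in Lgr5+ and Lgr6+ cells, for the Wnt ligands, the Frizzled receptors and the secreted antagonists. *Wnt7b*, *Fzd9* and *Sfrp1* are the largest shares of their groups in both populations, *Dkk3* goes from 42.7% to 23.4% of the antagonists, and *Fzd8* from 11.5% to 4.01% of the Frizzleds.

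Other genes of the pathway were taken from lists of extracellular regulators, of the intracellular cascade and of target genes, 73 genes in all, of which 65 were kept. Among these, 18 genes (27.7%) were higher in Lgr5+ and 14 (21.5%) in Lgr6+ cells, shares near the 23.3% and 28.5% of all kept genes. The RNA of *Ctnnb1* and of *Axin2* was nearly level, while other target genes given below differed in both directions. *Ctnnb1*, which encodes β-catenin, stood at 155 FPKM in Lgr5+ and 154 FPKM in Lgr6+ cells. *Axin2*, a feedback gene widely used to read out this branch, had 3.80 and 3.68, a difference of -0.04. *Wls*, which carries acylated Wnt proteins to the cell surface, had 36.2 and 34.1, so it did not share the difference of *Porcn*.

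In the intracellular cascade 36 of 37 genes were kept, 12 (33.3%) higher in Lgr5+ and 3 (8.33%) higher in Lgr6+ cells, against the same 23.3% and 28.5%. Those with 5 FPKM or more that were higher in Lgr5+ cells included the casein kinases *Csnk1d*, with 63.3 and 17.9, *Csnk1e*, with 75.1 and 33.4, and *Csnk1g2*, with 132 and 76.9. They further included *Dvl2*, with 13.5 and 6.57, *Amer1*, with 6.65 and 1.64, *Fbxw11*, with 28.8 and 16.6, and *Pygo1*, with 10.9 and 5.98. Of the DNA-binding partners of β-catenin, *Tcf7l1* had 19.7 and 10.2 and *Tcf7l2* had 21.3 and 12.6, whereas *Lef1* had 6.97 and 21.6 and the low *Tcf7* had 0.306 and 2.73. Of these 4 genes 2 were thus higher in each population. The co-repressors *Tle1*, with 24.6 and 15.3, and *Tle3*, with 16.7 and 9.49, were higher in Lgr5+ cells. *Dvl1*, with 7.403 and 19.6, was higher in Lgr6+ cells, opposite to *Dvl2*, which encodes a Dishevelled protein of the same family.

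Of 18 extracellular regulators 14 were kept, 3 (21.4%) higher in Lgr5+ and 6 (42.9%) higher in Lgr6+ cells, against 23.3% and 28.5% of all kept genes. *Ptk7*, a co-receptor of planar cell polarity, stood at 14.0 FPKM in Lgr5+ and 6.59 FPKM in Lgr6+ cells. The glypicans *Gpc6*, with 14.0 and 6.00, and *Gpc4*, with 15.1 and 9.65, lay on the same side. *Sostdc1*, a secreted antagonist of Wnt and BMP signalling, had 6.64 and 12.6. The other 5 genes higher in Lgr6+ cells were all below 5 FPKM, among them *Notum*, which removes the lipid from Wnt proteins, with 0.633 and 4.30, and *Apcdd1*, listed at 0 and at 3.34. Of 19 target and feedback genes 16 were kept, 3 (18.75%) higher in Lgr5+ and 5 (31.25%) higher in Lgr6+ cells, against the same shares of all kept genes. *Ccnd1*, with 66.8 and 34.4, and *Cd44*, with 16.2 and 9.37, were higher in Lgr5+ cells, whereas *Nkd1*, with 4.83 and 9.91, and *Fgf20*, with 0.956 and 13.8, were higher in Lgr6+ cells, as was *Lgr5*.

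Markers of mesenchyme, endothelium, glia and macrophages were among the genes higher in Lgr6+ cells. Of 11 mesenchyme and fibrocyte markers, 6 (54.5%) were higher in Lgr6+ and 1 (9.09%) in Lgr5+ cells, against 28.5% and 23.3% of all kept genes. The list, with none at 0, summed to 340 FPKM in Lgr5+ and 629 in Lgr6+ cells. Most of that gap was *Otos*, at 5.598 and 248 FPKM, and without it the sums were 335 and 380.5, with *Lum*, at 179 and 101, higher in Lgr5+ cells. All 6 endothelial markers (100%) were higher in Lgr6+ cells, with sums of 10.9 and 80.7, and *Kdr* was listed at 0 in Lgr5+ cells. Of 6 Schwann cell and glial markers 4 (80% of the 5 kept) were higher in Lgr6+ cells, with sums of 50.1 and 255. Of 8 macrophage markers 6 (100% of those kept) were higher in Lgr6+ cells, with sums of 1.12 and 205. *C1qb*, *C1qc*, *Tyrobp*, *Csf1r* and *Aif1* were listed at 0 in Lgr5+ cells. The markers not kept were *Ptprc*, at 0 in Lgr5+ and 0.0081 in Lgr6+ cells, and *Cx3cr1*, at 0.215 and 0.681. *Ptprc* was thus at or near 0 in both populations. The part of these cells in the values of *Wif1*, *Ror1*, *Wnt2b*, *Wnt5b* and *Wnt11* was not tested.

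Of 5 erythroid markers 4 (80%) were higher in Lgr5+ cells and none in Lgr6+ cells, against 23.3% and 28.5% of all kept genes. Their sums were 629 and 108. Of 13 supporting cell and prosensory markers 3 (23.1%) were higher in Lgr5+ and 2 (15.4%) in Lgr6+ cells. The former share was near that of all kept genes and the latter below it. The 3 genes were *Sox2*, at 140 and 54.8, *Jag1*, at 108 and 59.2, and *Epcam*, at 396 and 258. The 2 genes were *Epyc*, at 29.35 and 141, and *Lfng*, at 9.96 and 17.4. Of the 10 hair cell markers 5 (50%) were higher in Lgr6+ cells and none in Lgr5+ cells. Of 6 neuronal markers 2 (33.3%) were higher in Lgr5+ and 1 (16.7%) in Lgr6+ cells, with sums of 124 and 141. Of 5 melanocyte markers 1 was kept, with sums of 0.507 and 3.85, and *Mlana* and *Tyrp1* were listed at 0 in both. The part of these lists in the differences of *Dkk3*, *Sfrp1*, *Wnt7a*, *Wnt7b* and *Ryk* was not tested either.

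**Figure D4:**
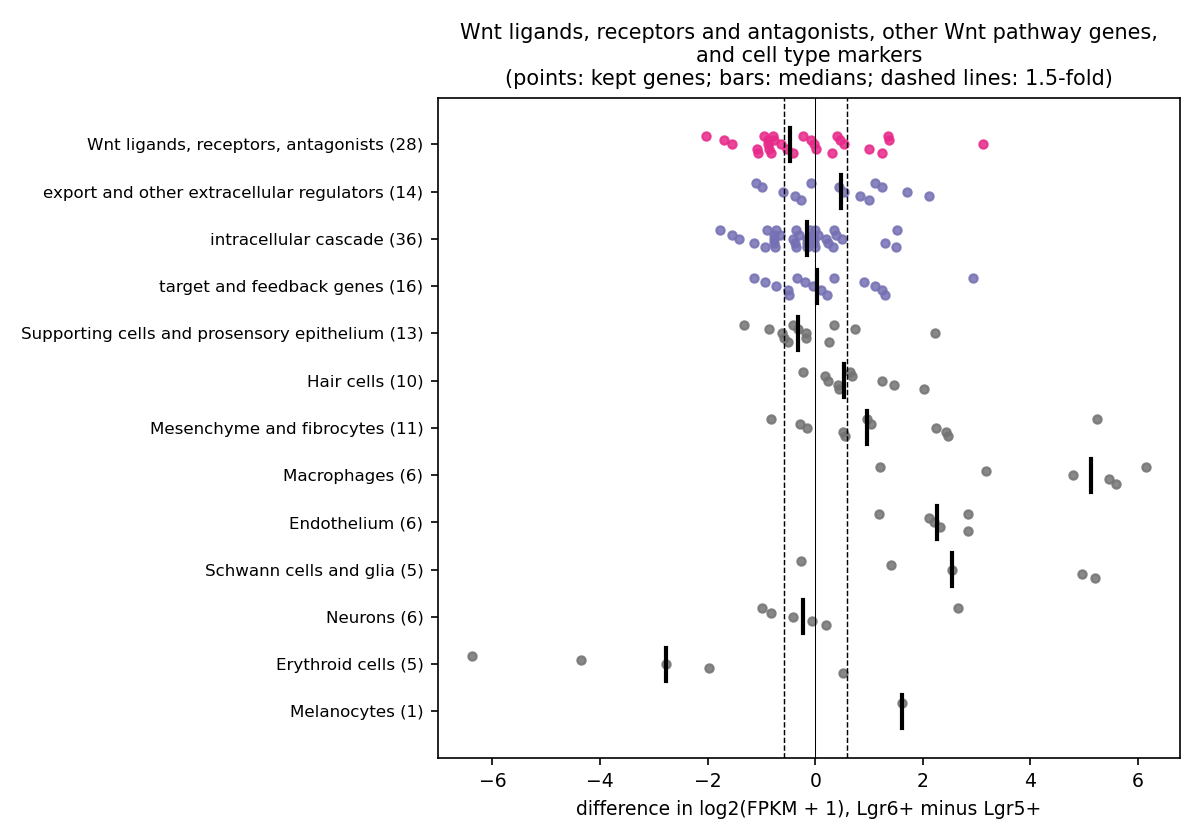
Difference in log2(FPKM + 1), Lgr6+ minus Lgr5+ (horizontal axis), of each kept gene (points) in the Wnt ligands, receptors and antagonists, in 3 lists of other Wnt pathway genes and in the lists of cell type markers, with the number of kept genes in brackets, medians as bars and 1.5-fold as dashed lines. The median of the Wnt ligands, receptors and antagonists is -0.47, while those of the mesenchyme, endothelial, glial and macrophage lists are 0.95, 2.26, 2.55 and 5.12.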

How the data were processed

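Per the study's methods, the authors made cDNA with a SMART-Seq v4 kit, cleaned paired-end reads by Trimmomatic, aligned these by TopHat to the mouse genome, annotated genes by RefGene and compared expression by Cufflinks. Versions are not given in the sources used here. The deposited FPKM values are 1 combined value per population, so single libraries could not be compared. The table also holds the authors' own fold changes, *p*-values and *q*-values, which were not used. The methods name mm9 and the processing notes mm10. The deposited intervals, with starts read as counting from 0, overlapped the RefSeq gene of the same symbol in GRCm38.p6 for 98.8% of 22500 genes and for all 46 genes described here.

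The 46 genes and all lists were chosen with earlier results of these data known. All kept genes among the 46 were to be named, as were listed pathway genes past 1.5-fold with 5 FPKM or more, *Lgr5*, *Lgr6*, *Axin2* and *Ctnnb1*. *Wls*, *Notum*, *Apcdd1*, *Tcf7* and individual markers were chosen once their values had been seen. The fold threshold of 1.5 is that of the study, while the filter at 1 FPKM was set here. Applying the threshold to FPKM + 1 was also a choice made here, and it is stricter for low genes. As plain FPKM ratios of Lgr6+ over Lgr5+ cells, *Fzd4* (1.52), *Lrp5* (1.75) and *Ror2* (1.78) were past 1.5-fold but were not counted. Alternatives were a pseudocount of 0.1, other filters, 3 scalings and a 2-fold threshold. The table holds no counts, so no counting intervals are given. Lengths for the steps came from GENCODE vM1, and the search used transcripts over 700 bases. Calculations were run in Python (3.11.15) using the packages numpy (2.4.6), pandas (2.3.3), scipy (1.17.1, rank correlation) and, for plots, matplotlib (3.10.9), and were tested on simulated data.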

Additional observations from a re-analysis of the deposited data

How the results depend on the processing

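The count of 13 genes higher in Lgr5+ progenitors was 9 of 28 after scaling to the same summed FPKM, against 16.3% of all kept genes. It was 11 of 19 when genes had to reach 5 FPKM in either population, against 24.1%. With 1 FPKM or more in both it was 12 of 21, against 22.5%, and with a fold threshold of 2 it was 5 of 28, against 11.7%. The count of 5 genes higher in Lgr6+ progenitors was 8 of 28 with a pseudocount of 0.1, against 31.3% of all kept genes. After scaling to the same summed FPKM it was 7 of 28, against 36.9%. It was 1 of 19 at 5 FPKM or more, against 24.1%, and 1 of 21 with 1 FPKM or more in both, against 21.4%, where fewer genes enter. The median difference of -0.47 was -0.48 with a pseudocount of 0.1, 0 with no filter, -0.78 at 5 FPKM or more, -0.76 with 1 FPKM or more in both, -0.45 after quantile normalization, -0.47 after scaling to the same upper quartile and -0.21 after scaling to the same summed FPKM. No gene counted as higher in 1 population was lower there under any of these settings, while among genes under 1.5-fold the sign turned for *Lrp5* (-0.04) and *Fzd2* (-0.12) after quantile normalization and for *Fzd6* (0.17), *Fzd7* (0.02) and *Wnt9a* (0.14) after scaling to the same summed FPKM. No paired analysis was possible because the table holds 1 combined value per population, and leaving out single replicates was not run for the same reason. The spread between libraries is unknown, and values of a few steps in Lgr5+ progenitors limit what can be said of *Wif1*, *Ror1*, *Wnt2b* and *Wnt5b*.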
